A study of Mus musculus with 13 samples.

Results

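Trem2 and 7 genes whose products signal with it in microglia were followed in mouse cortex across 13 libraries of poly(A) RNA. The 8 genes were Trem2, Tyrobp, Hcst, Syk, Plcg2, Inpp5d, Spi1 and Abi3, chosen by name. All 8 were found, each on 1 of the 53832 gene entries of the deposited table, and all 8 were among the 18612 entries with a mean of at least 0.5 TPM (a gene's length-scaled share of the transcripts in a library) that were tested. Trazodone was given to APP/PS1 mice in 4 libraries, distilled water to APP/PS1 mice in 3 and distilled water to WT mice in 6. All are labelled 2 weeks, and no WT group received trazodone. Trazodone is a serotonin antagonist and reuptake inhibitor used against depression. APP/PS1 mice carry human transgenes of familial Alzheimer's disease and deposit amyloid in the cortex. The sources used here do not give the transgene line or its promoter, the animals' age or sex, or a dose. The labels do not say that each library is a separate animal, so p-values measure the spread between libraries.

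Trem2 is a receptor on the surface of microglia, the macrophages of the brain, and binds lipids and lipoproteins. It has no signalling motif of its own and works through the membrane adaptor Tyrobp, also called DAP12, whose phosphorylated motif recruits the kinase Syk. Syk activates the phospholipase Plcg2, while the adaptor Hcst, also called DAP10, links such receptors to phosphoinositide 3-kinase, whose lipid product the phosphatase Inpp5d (SHIP-1) removes. Spi1 is a transcription factor that myeloid cells need, and Abi3 is a subunit of the WAVE complex that remodels actin. Human variants at or near TREM2, PLCG2, INPP5D, SPI1 and ABI3 are associated with the risk of Alzheimer's disease.

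All 8 genes are protein-coding. In GENCODE M21, on GRCm38, Trem2 lies on chromosome 17 (48346401 to 48354147, plus strand), Syk on chromosome 13 (52583173 to 52648792, plus) and Plcg2 on chromosome 8 (117498291 to 117635142, plus). Inpp5d lies on chromosome 1 (87620312 to 87720507, plus), Spi1 on chromosome 2 (91082390 to 91115756, plus) and Abi3 on chromosome 11 (95830074 to 95842476, minus). Tyrobp (chromosome 7, 30413760 to 30417585, plus) and Hcst (30417712 to 30419854, minus) are neighbours that face each other, with 127 bp between their 3' ends. The strandedness of the libraries is not stated, so reads of each that run past its end cannot be told apart from the other gene. Abi3 overlaps Gngt2, Zfp652 and Phospho1 on the other strand, and Phospho1 has no entry of its own.

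The promoter windows of 3 genes that were higher in both APP/PS1 groups than in WT are shown because Spi1 is itself among the genes described and binds promoters of myeloid genes at a core of GAGGAA. RefSeq windows on GRCm38.p6 run from 250 bases before to 50 after the gene start, and capitals mark this core on either strand. Trem2 is chr17:48346151-48346450, Inpp5d chr1:87620062-87620361 and Plcg2 chr8:117498025-117498324, all on the plus strand and printed 5' to 3'.
Trem2: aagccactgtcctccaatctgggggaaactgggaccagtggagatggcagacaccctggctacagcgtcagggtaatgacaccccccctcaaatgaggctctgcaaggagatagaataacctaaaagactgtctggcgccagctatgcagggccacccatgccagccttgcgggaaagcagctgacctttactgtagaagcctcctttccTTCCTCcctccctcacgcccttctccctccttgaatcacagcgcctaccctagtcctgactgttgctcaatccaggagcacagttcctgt
Inpp5d: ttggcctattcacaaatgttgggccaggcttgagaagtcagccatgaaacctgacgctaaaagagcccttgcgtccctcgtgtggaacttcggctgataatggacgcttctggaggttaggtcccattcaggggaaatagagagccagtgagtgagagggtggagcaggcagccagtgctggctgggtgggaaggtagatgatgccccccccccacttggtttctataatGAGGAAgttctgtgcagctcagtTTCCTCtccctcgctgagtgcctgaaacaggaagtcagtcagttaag
Plcg2: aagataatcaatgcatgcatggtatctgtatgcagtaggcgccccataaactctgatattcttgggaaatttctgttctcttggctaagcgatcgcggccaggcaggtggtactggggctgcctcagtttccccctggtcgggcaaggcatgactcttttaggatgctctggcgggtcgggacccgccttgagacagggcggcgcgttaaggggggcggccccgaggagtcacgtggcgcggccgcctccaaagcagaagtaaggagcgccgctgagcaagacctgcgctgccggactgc
The Trem2 window held the core on the other strand, beginning 40 bases before the start. Inpp5d held it on the gene strand, beginning 20 bases before the start, and on the other strand, beginning 3 bases past it. No match was found in these letters of the Plcg2 window. Of the 6 windows that the table gives for 5 of the 8 genes, 3 held the core, against 28.3% of all 32851 windows. A match is a description of the letters and not a measured binding site.

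Estimated depth was 33.7 to 36.7 M fragments in APP/PS1 trazodone, 30.6 to 32.1 M in APP/PS1 water and 32.7 to 33.8 M in WT water, and 16234 to 16835 genes reached 1 TPM in each. The 3 APP/PS1 water libraries were the shallowest by this approximate estimate. They also held the highest share of mitochondrially encoded transcripts, at 13.1 to 15.01% of TPM. That share was 8.96 to 10.7% in APP/PS1 trazodone and 9.07 to 12.3% in WT water. In how log2 TPM followed the GC content of genes, the 3 APP/PS1 water libraries lay outside the range of all others, with a mean slope of -0.195 ± 0.0365 (SD) per 10 percentage points, against 0.0881 ± 0.0506 in APP/PS1 trazodone and 0.0390 ± 0.0493 in WT water. The 8 genes have a GC content of 51.0 to 59.7% in their longest annotated transcripts. The part of these library differences in the results below was not tested, apart from a correction for GC content and length, whose values are given beside calls and group counts that it changed. In bulk RNA, fewer cells of a type and less RNA per cell cannot be told apart, and the same holds for a rise. Of 12 pan-microglial markers, 8 rose in APP/PS1 water and 8 in APP/PS1 trazodone relative to WT. Their summed level was 774 to 887 TPM in APP/PS1 trazodone, 872 to 1088 TPM in APP/PS1 water and 348 to 434 TPM in WT water. Border macrophage markers, 7 in number, summed to 14.0 to 17.0, 10.98 to 20.7 and 9.66 to 14.98 TPM in the same order of groups, with 0 called in any comparison by limma at an adjusted p under 0.05. Blood leukocyte markers, 12 in number, summed to 2.94 to 9.98, 4.56 to 13.3 and 2.58 to 16.5 TPM, with 3 tested and 0 called, and the neutrophil marker Ly6g was at 0 in all groups. In APP/PS1 water relative to WT water, 3 of 8 neuron markers and 1 of 6 oligodendrocyte markers were lower, 4 of 7 astrocyte markers were higher and 0 of 6 endothelial markers were called. After the correction 2 of the 8 neuron markers and 0 of the 6 oligodendrocyte markers were lower and 4 of the 7 astrocyte markers higher. Of all entries tested, 17.5% were lower and 6.19% higher in this comparison, and 6.29% and 6.38% after the correction. The 1 of 6 oligodendrocyte markers was thus near the general share. In APP/PS1 trazodone relative to APP/PS1 water, 1 of the 12 pan-microglial markers was lower. There 3 of 8 neuron and 1 of 6 oligodendrocyte markers were higher, and of 7 astrocyte markers 1 was higher and 1 lower. After the correction 1 neuron marker was higher, 1 astrocyte marker lower and 0 of the rest called. Of all entries, 12.5% were higher and 3.92% lower, and 2.62% and 1.58% after the correction. The part of these other cell types in the results was not tested.

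The receptor and its main adaptor showed the largest differences between genotypes among the 8 genes. Trem2 was measured at 108, 99.1, 97.0 and 121 TPM in the 4 APP/PS1 trazodone libraries and at 117, 141 and 109 TPM in the 3 APP/PS1 water libraries, and in WT water it ran from 15.01 to 23.2 TPM with a median of 19.4. Every APP/PS1 library stood above every WT library, and the ranges of both APP/PS1 groups overlapped. Trem2 rose 6.43-fold in APP/PS1 water relative to WT water (95% interval 5.30 to 7.80), a log2 fold change of 2.68 ± 0.13 (SE; adjusted p = 3.06e-08, limma across all genes). In APP/PS1 trazodone it rose 5.60-fold relative to WT water (4.70 to 6.68; log2 fold change 2.49 ± 0.12, adjusted p = 2.17e-08). Tyrobp was measured at 211, 162, 179 and 228 TPM in APP/PS1 trazodone and at 182, 235 and 164 TPM in APP/PS1 water, against 26.4 to 39.9 TPM in WT water, with a median of 28.5. Here too the APP/PS1 libraries lay wholly above the WT libraries, and the highest WT value belonged to WT water 4. Tyrobp rose by a log2 fold change of 2.67 ± 0.15 in APP/PS1 water (6.36-fold; adjusted p = 1.02e-07) and by 2.68 ± 0.13 in APP/PS1 trazodone (6.41-fold; adjusted p = 2.88e-08), each relative to WT water.

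**Figure D1:**
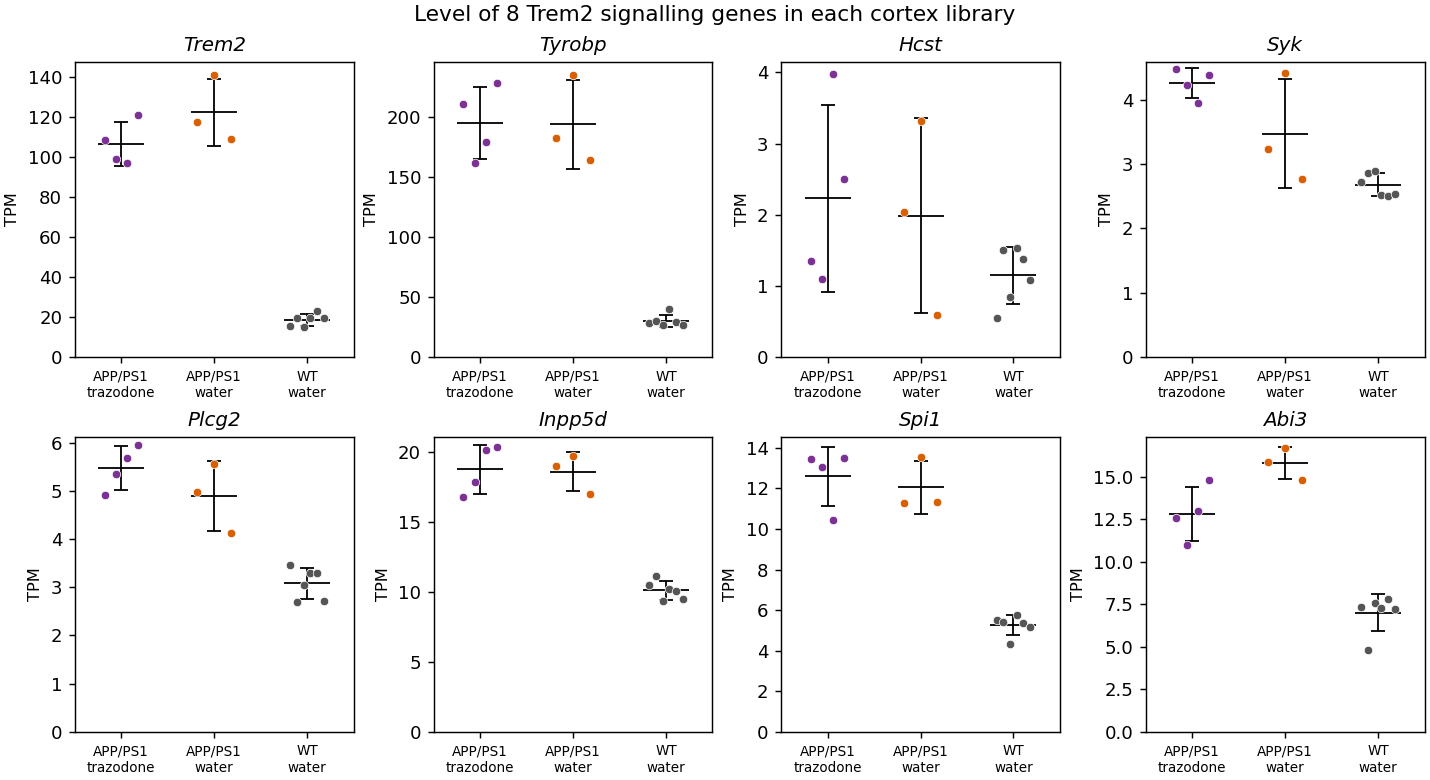
TPM of each of the 8 genes (vertical axes, from 0) in every library, with 1 point per library and bars for the mean ± SD of APP/PS1 trazodone (n = 4), APP/PS1 water (n = 3) and WT water (n = 6). Trem2 is at 97.0 TPM or more in each APP/PS1 library and at 23.2 TPM or less in each WT library, while the ranges of Hcst overlap between all groups.

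The other adaptor, Hcst, was the least abundant of the 8 genes. It was measured at 1.35, 1.10, 3.97 and 2.50 TPM in APP/PS1 trazodone and at 2.05, 3.32 and 0.599 TPM in APP/PS1 water, against 0.552 to 1.53 TPM in WT water, with a median of 1.23. These ranges overlap, and APP/PS1 water 3 lay below most WT libraries. At the estimated depth and the length of its longest annotated transcript, 442 bp, this is about 2.83 to 21.2 fragments per library, against at least 105 for each of the other genes by the same estimate. Its log2 fold change was 0.46 ± 0.39 in APP/PS1 water (95% interval -0.38 to 1.29; adjusted p = 0.437) and 0.65 ± 0.36 in APP/PS1 trazodone (-0.12 to 1.41; adjusted p = 0.464), each relative to WT water. The value in APP/PS1 water was 0.0589 without APP/PS1 water 2 and 0.96 without APP/PS1 water 3 (adjusted p = 0.941 and 0.0951 by limma). No difference in Hcst was detected, with intervals that reach past a log2 fold change of 1 in both comparisons.

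Among the signalling enzymes, Syk, the kinase that binds phosphorylated Tyrobp, was measured at 4.47, 4.22, 3.95 and 4.38 TPM in APP/PS1 trazodone and at 3.23, 4.41 and 2.77 TPM in APP/PS1 water, against 2.51 to 2.90 TPM in WT water, with a median of 2.63. The trazodone libraries stood above all WT libraries, whereas APP/PS1 water 3 lay within the WT range. Syk rose in APP/PS1 trazodone relative to WT water by a log2 fold change of 0.58 ± 0.12 (1.50-fold; adjusted p = 0.0205), and in APP/PS1 water the value was 0.30 ± 0.13 (adjusted p = 0.122). The first of these calls ended without APP/PS1 trazodone 1, 2 or 4 (adjusted p = 0.0804, 0.0563 and 0.0710). The second was 0.14 without APP/PS1 water 2 (adjusted p = 0.527), and it passed the test without APP/PS1 water 3 (0.43 in log2, adjusted p = 0.0493) and after the correction for GC content and length (0.55, adjusted p = 0.0160).

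Plcg2, the phospholipase activated by Syk, was measured at 4.91, 5.36, 5.68 and 5.97 TPM in APP/PS1 trazodone and at 4.99, 5.56 and 4.12 TPM in APP/PS1 water, against 2.70 to 3.45 TPM in WT water, with a median of 3.17. Both APP/PS1 groups lay above the WT range. It rose by a log2 fold change of 0.59 ± 0.13 in APP/PS1 water (1.50-fold; adjusted p = 0.00424) and by 0.74 ± 0.11 in APP/PS1 trazodone (1.67-fold; adjusted p = 0.00197). Inpp5d, the inhibitory lipid phosphatase, was measured at 16.7, 17.8, 20.1 and 20.4 TPM in APP/PS1 trazodone and at 19.0, 19.7 and 17.0 TPM in APP/PS1 water, against 9.30 to 11.2 TPM in WT water, with a median of 10.1. No APP/PS1 library overlapped with WT, and the spread within each group was small. Inpp5d rose by a log2 fold change of 0.84 ± 0.09 in APP/PS1 water (1.79-fold; adjusted p = 3.44e-05) and by 0.86 ± 0.08 in APP/PS1 trazodone (1.81-fold; adjusted p = 2.57e-05).

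Spi1, the transcription factor, was measured at 13.4, 13.1, 10.4 and 13.5 TPM in APP/PS1 trazodone and at 11.3, 13.5 and 11.3 TPM in APP/PS1 water, against 4.34 to 5.75 TPM in WT water, with a median of 5.40. The groups of the 2 genotypes did not overlap. Spi1 rose by a log2 fold change of 1.12 ± 0.12 in APP/PS1 water (2.18-fold; adjusted p = 2.35e-05) and by 1.18 ± 0.11 in APP/PS1 trazodone (2.27-fold; adjusted p = 1.13e-05). Abi3, the actin regulator, was measured at 12.6, 10.96, 12.96 and 14.80 TPM in APP/PS1 trazodone and at 15.9, 16.7 and 14.81 TPM in APP/PS1 water, against 4.82 to 7.82 TPM in WT water, with a median of 7.30. All 4 trazodone values lay between those of WT water and those of APP/PS1 water, without overlap with either. The margin to APP/PS1 water was very small, with 14.80 TPM in APP/PS1 trazodone 4 and 14.81 TPM in APP/PS1 water 3. Abi3 rose by a log2 fold change of 1.13 ± 0.14 in APP/PS1 water (2.19-fold; adjusted p = 8.94e-05) and by 0.83 ± 0.13 in APP/PS1 trazodone (1.78-fold; adjusted p = 0.00157), each relative to WT water. Gngt2, which overlaps Abi3 on the other strand, averaged 8.88 TPM in APP/PS1 trazodone, 7.09 TPM in APP/PS1 water and 3.81 TPM in WT water, and its part in the Abi3 values was not tested.

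Between APP/PS1 water and WT water, which bears on what the genotype changed, the test called 6 of the 8 genes higher and 0 lower. Across all entries tested, 6.19% were called higher and 17.5% lower. The median log2 fold change of the 8 genes was 0.98, against -0.10 over all entries. In 6 of the 8 genes every APP/PS1 water library lay above every WT library, which held for 6.55% of all entries. After the correction for GC content and length, 7 of the 8 genes were called higher and 0 lower, against 6.38% and 6.29% of entries, and Trem2, Tyrobp, Spi1 and Abi3 stood at log2 fold changes of 2.84, 2.80, 1.42 and 1.51. Between APP/PS1 trazodone and WT water, 7 of the 8 were called higher and 0 lower, against 1.97% and 0.258% of entries (2.23% in either direction). In 7 of the 8 every trazodone library lay above every WT library, as in 3.25% of entries, and 0 lay below, as in 1.83%. The correction for GC content and length left 7 higher and 0 lower, against 2.23% and 0.378% of entries. Both comparisons use the same 6 WT libraries.

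**Figure D2:**
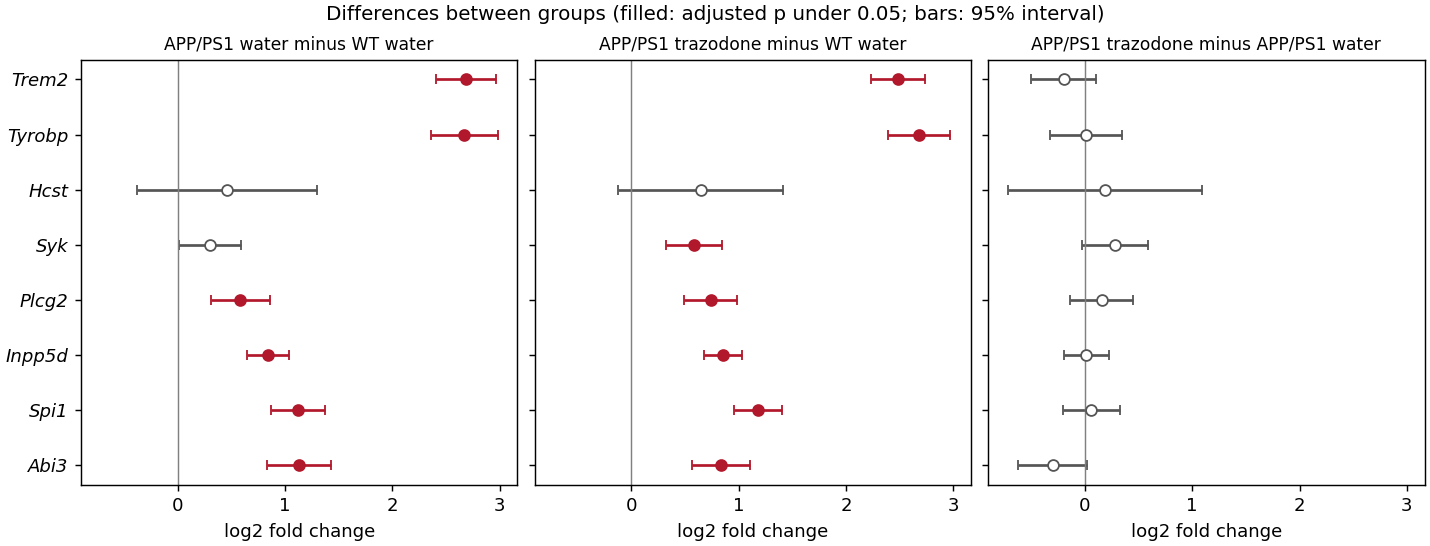
Log2 fold change of each of the 8 genes (horizontal axes) for APP/PS1 water minus WT water, APP/PS1 trazodone minus WT water and APP/PS1 trazodone minus APP/PS1 water, with 95% intervals of the limma fit; filled points have an adjusted p under 0.05. Trem2 and Tyrobp lie between 2.49 and 2.68 in both comparisons with WT, and no point is filled in the comparison of trazodone with water.

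What trazodone changed in APP/PS1 mice was examined against the water libraries of that genotype. By limma, 0 of the 8 genes passed an adjusted p under 0.05 and 0 had an unadjusted p under 0.05, while 12.5% of all entries were called higher and 3.92% lower, 16.4% in all. Trem2 averaged 106 ± 10.9 TPM in APP/PS1 trazodone and 122 ± 16.7 TPM in APP/PS1 water (SD, n = 4 and 3). Its ratio was 0.872, with a 95% interval of 0.708 to 1.07 and an adjusted p of 0.379 by limma. Tyrobp averaged 195 ± 29.9 TPM in APP/PS1 trazodone and 194 ± 36.9 TPM in APP/PS1 water, a ratio of 1.01 (0.799 to 1.27). For Inpp5d the ratio was 1.01 (0.872 to 1.17), for Spi1 1.04 (0.866 to 1.25), for Plcg2 1.11 (0.909 to 1.36), for Syk 1.21 (0.979 to 1.51) and for Hcst 1.14 (0.609 to 2.14). These intervals leave room for differences of about the size of their bounds, which are widest for Hcst. Abi3 was the gene with the lowest ratio, 0.813 (0.651 to 1.02; log2 fold change -0.30 ± 0.15, adjusted p = 0.201). It was also the only one of the 8 whose groups did not overlap, by the very small margin given above. Every trazodone library lay below every APP/PS1 water library, as in 8.35% of all entries. None of the 8 lay wholly above, as 18.1% of entries did. After the correction for GC content and length, Abi3 was called lower in APP/PS1 trazodone (log2 fold change -0.68 ± 0.16, adjusted p = 0.0300), and 0 of the 8 were called higher, against 1.58% of entries lower and 2.62% higher. Abi3 has the highest GC content of the 8 genes, 59.7% in its longest annotated transcript.

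Because TPM are scaled by length, the levels can also be ranked between genes. In all 3 groups the order of means was Tyrobp, Trem2, Inpp5d, Abi3, Spi1, Plcg2, Syk and Hcst. Tyrobp lay above Trem2, and Trem2 above Inpp5d, without overlap in every group. The step between Trem2 and Inpp5d was 106 against 18.8 TPM in APP/PS1 trazodone, 122 against 18.6 TPM in APP/PS1 water and 18.7 against 10.1 TPM in WT water. The ranges of Abi3 and Spi1 overlapped in APP/PS1 trazodone and, through WT water 2 alone (Abi3 at 4.82 TPM), in WT water. Those of Plcg2 and Syk overlapped in APP/PS1 water, where Plcg2 was nevertheless the higher of the pair in each of the 3 libraries, and in WT water. Syk and Hcst overlapped in both APP/PS1 groups. Within the APP/PS1 water group, library 2 held the highest value of all 8 genes and library 3 the lowest of 7. In APP/PS1 trazodone, library 4 held the highest value of 6 genes.

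Ratios of TPM + 0.5 taken within a library depend little on how that library was scaled, and 4 of them were compared by exact two-sided permutation tests, with p-values adjusted over the 4 in each comparison. The level of Trem2 per Tyrobp was 0.514 to 0.614 in APP/PS1 trazodone, 0.601 to 0.666 in APP/PS1 water and 0.496 to 0.808 in WT water. Receptor and adaptor thus kept overlapping ratios: the log2 ratio differed by 0.02 between APP/PS1 water and WT water (95% interval -0.37 to 0.40; exact permutation p = 0.940, adjusted p = 0.940). Between APP/PS1 trazodone and APP/PS1 water it differed by -0.21 (-0.40 to -0.02; exact permutation p = 0.0857, adjusted p = 0.286), where 35 splits allow no p below 0.0286. Between APP/PS1 trazodone and WT water the difference was -0.19 (-0.52 to 0.14; exact permutation p = 0.214, adjusted p = 0.214). Hcst per Tyrobp was 0.00878 to 0.0249 in APP/PS1 trazodone, 0.00670 to 0.0162 in APP/PS1 water and 0.0368 to 0.0662 in WT water. Every APP/PS1 library had less Hcst per Tyrobp than every WT library. The log2 ratio differed by -2.21 between APP/PS1 water and WT water (-2.97 to -1.46; exact permutation p = 0.0119, which is the lowest that 84 splits allow, adjusted p = 0.0159). In APP/PS1 trazodone it differed from WT water by -2.04 (-2.75 to -1.32; exact permutation p = 0.00476, which is the lowest that 210 splits allow, adjusted p = 0.00952). Both Hcst differences rest on few Hcst fragments, and with pseudocounts of 0.1 and 1 they ranged from -2.15 to -2.26 for APP/PS1 water and from -1.89 to -2.14 for APP/PS1 trazodone.

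Inpp5d per Syk, the phosphatase over the kinase, was 3.47 to 4.63 in APP/PS1 trazodone, 4.11 to 5.36 in APP/PS1 water and 2.88 to 3.55 in WT water. Every APP/PS1 water library had a higher ratio than every WT library, a log2 difference of 0.54 (0.30 to 0.79; exact permutation p = 0.0119, adjusted p = 0.0159). The trazodone libraries differed from WT by 0.27 (0.06 to 0.48; exact permutation p = 0.0143, adjusted p = 0.0190), a call that ended without APP/PS1 trazodone 3 (0.21, adjusted p = 0.0635), and from APP/PS1 water by -0.27 (-0.64 to 0.11; exact permutation p = 0.143, adjusted p = 0.286). The last ratio set Trem2 against a microglial index, the mean log2 level of the 12 pan-microglial markers, which include Cx3cr1 and Csf1r. It was 2.51 to 3.11 in APP/PS1 trazodone, 2.51 to 2.99 in APP/PS1 water and 0.746 to 1.03 in WT water. Trem2 per marker level was higher in both APP/PS1 groups than in WT water, by a log2 difference of 1.63 for APP/PS1 water (1.32 to 1.95; exact permutation p = 0.0119, adjusted p = 0.0159) and 1.64 for APP/PS1 trazodone (1.36 to 1.92; exact permutation p = 0.00476, adjusted p = 0.00952). Between APP/PS1 trazodone and APP/PS1 water the ratio differed by 0.01 (-0.28 to 0.29; exact permutation p = 0.943, adjusted p = 0.943).

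**Figure D3:**
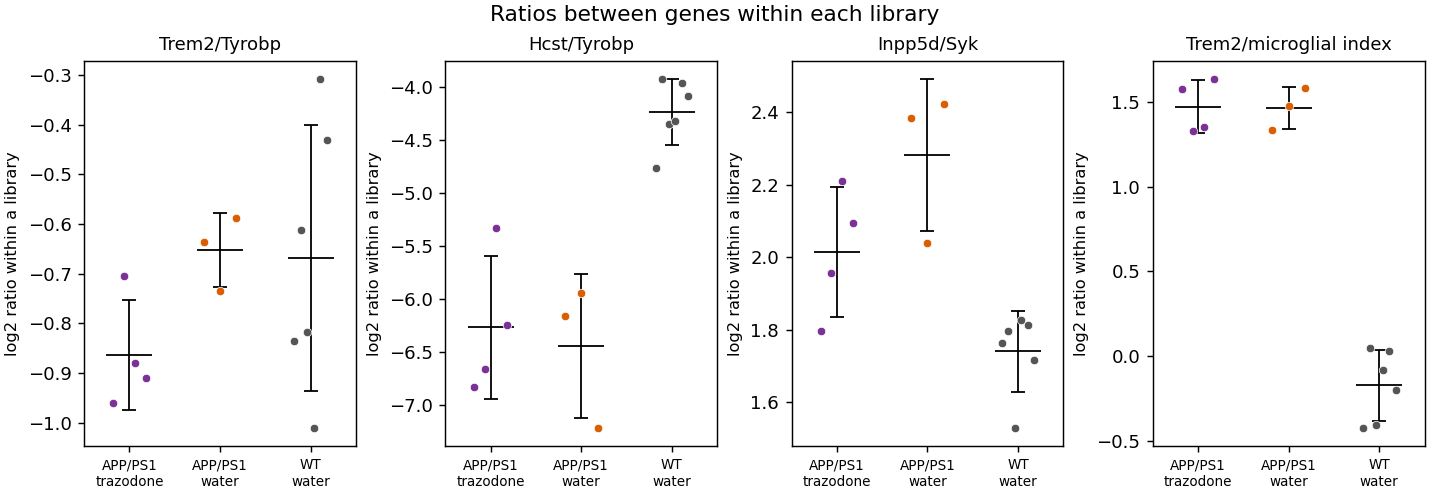
Log2 of 4 within-library ratios (vertical axes, each with its own range), with 1 point per library and bars for the mean ± SD of APP/PS1 trazodone, APP/PS1 water and WT water. Trem2/Tyrobp overlaps between groups, Hcst/Tyrobp is lower in each APP/PS1 library than in each WT library, and Trem2/microglial index lies at 1.33 or more in each APP/PS1 library and at 0.05 or less in each WT library.

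The other genes were set against the same index as a description. In log2, Tyrobp exceeded its WT value relative to the index by 1.62 in APP/PS1 water and by 1.84 in APP/PS1 trazodone. The values were 0.07 and 0.34 for Spi1, 0.08 and -0.01 for Abi3, -0.21 and 0.01 for Inpp5d, -0.47 and -0.10 for Plcg2, -0.75 and -0.26 for Syk and -0.60 and -0.20 for Hcst. Trem2 and Tyrobp thus differed from WT by 1.62 to 1.84 beyond the index, and the other 6 genes by -0.75 to 0.34. The 12 markers behind the index changed by unequal amounts. Their smallest log2 fold change was 0.24 and their largest 2.16 when APP/PS1 water was set against WT water. With APP/PS1 trazodone set against WT water, these extremes were 0.29 and 1.39. Each time 4 of the 12 markers were not called by limma. Whether the index follows the number of microglia was not tested, so differences relative to it cannot be read as changes per cell.

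The genes whose pattern was most like that of Trem2 were ranked by Pearson's r of log2(TPM + 0.5) over the 13 libraries, as a description of groups that differ in genotype. Of 18611 other entries, the 5 highest were Cd68 (r = 0.995), Gusb (0.994), Clec7a (0.993), Itgax (0.992) and Prnp (0.990). Cd68 is a lysosomal protein of macrophages, Gusb a lysosomal hydrolase, and Clec7a and Itgax are surface receptors of plaque-associated microglia. Prnp, the prion protein gene whose promoter is used in some APP transgenes, was 2889 to 3209 TPM in APP/PS1 trazodone, 3202 to 3346 TPM in APP/PS1 water and 849 to 956 TPM in WT water. With group means removed, r was 0.721 for Cd68, 0.677 for Gusb, 0.629 for Clec7a, 0.553 for Itgax and 0.152 for Prnp. Tyrobp ranked 7, Spi1 24, Inpp5d 39, Abi3 140, Plcg2 164, Syk 425 and Hcst 1425.

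Other genes of the pathway were grouped by role. Their counts stand against shares of all entries. In APP/PS1 water relative to WT water these were 6.19% higher and 17.5% lower. After the correction for GC content and length they were 6.38% and 6.29%. In APP/PS1 trazodone relative to APP/PS1 water they were 12.5% and 3.92%, and 2.62% and 1.58% after the correction. Of 14 genes that plaque-associated microglia raise in a Trem2-dependent manner, 12 rose and 0 fell in APP/PS1 water relative to WT water, with a median log2 fold change of 1.61. Cst7, a cystatin of activated microglia, stood at 67.8 to 149.9 TPM in APP/PS1 trazodone and 64.7 to 174 TPM in APP/PS1 water, and at 0.799 TPM or less in WT water. Clec7a rose by 5.07 ± 0.20, Itgax by 4.75 ± 0.22 and Cd68 by 2.24 ± 0.10, while Gpnmb (1.69 ± 0.63, adjusted p = 0.0687 by limma) and Igf1 (0.56 ± 0.20, adjusted p = 0.0612) did not pass. Between trazodone and water in APP/PS1 mice, 1 of the 14 fell and 0 rose. That gene was Clec7a, at 12.9 to 23.6 TPM in APP/PS1 trazodone and 25.1 to 35.2 TPM in APP/PS1 water (a log2 difference of -0.69 ± 0.22, adjusted p = 0.0449 by limma), and the call ended after the correction for GC content and length (-0.51, adjusted p = 0.235) and without any 1 of 9 of the 13 libraries (adjusted p up to 0.172).

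Among receptors and adaptors that also signal through an ITAM motif or through Tyrobp or Hcst, 6 of 9 reached the TPM minimum, of which 5 rose and 0 fell in APP/PS1 water. Fcer1g, the ITAM adaptor of Fc receptors, rose by 2.10 ± 0.15, Cd300c2 by 1.31 ± 0.15, Csf1r, the growth factor receptor of microglia, by 1.06 ± 0.10 and Clec5a, a lectin receptor that pairs with Tyrobp, by 1.16 ± 0.17. Fcer1g fell in APP/PS1 trazodone relative to APP/PS1 water, at 54.4 to 77.5 TPM in APP/PS1 trazodone and 84.9 to 129.9 TPM in APP/PS1 water (a log2 difference of -0.66 ± 0.16, adjusted p = 0.0144 by limma). It was still called after the correction for GC content and length (-0.80, adjusted p = 0.0164) but not without APP/PS1 water 2 (adjusted p = 0.0724). Csf1r is also part of the microglial index. Of the TREM family, Treml2 alone of 5 genes reached the minimum, and it rose by 1.17 ± 0.21 in APP/PS1 water relative to WT water, with means of 1.10 and 0.215 TPM.

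Of 4 genes for proteins that bind Trem2, Clu, the gene of the apolipoprotein clusterin, was the 1 that rose in APP/PS1 water relative to WT water (0.41 ± 0.08, adjusted p = 0.00255 by limma). After the correction for GC content and length Lgals3, a galectin, was called as well (0.74, adjusted p = 0.0451). Apoe, the gene of the main apolipoprotein of the brain, was 921 to 1571 TPM in APP/PS1 trazodone, 408 to 954 TPM in APP/PS1 water and 559 to 1482 TPM in WT water. Its libraries spread widely within each group. Apoe was called higher in APP/PS1 trazodone than in APP/PS1 water (1.04 ± 0.33, adjusted p = 0.0491 by limma), and this call ended after the correction for GC content and length (0.68, adjusted p = 0.311) and without any 1 of 10 of the 13 libraries (adjusted p up to 0.178). Among 7 sheddases and MS4A modulators of Trem2, 1 rose in APP/PS1 water relative to WT water, Ms4a6d (0.83 ± 0.23; adjusted p 0.0842 without APP/PS1 water 2 and 0.0702 without APP/PS1 water 3, by limma), and 0 were called in either comparison of trazodone. The sheddase genes Adam10 and Adam17 stood at 0.20 ± 0.17 and 0.10 ± 0.19 (adjusted p = 0.431 and 0.760 by limma).

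Downstream of Syk, 25 of 26 kinases, adaptors and effectors reached the minimum, of which 10 rose and 1 fell in APP/PS1 water relative to WT water (median 0.35), and 13 rose and 0 fell after the correction for GC content and length. Vav1, an exchange factor for Rac, rose by 1.04 ± 0.12, the Src family kinase gene Lyn by 0.88 ± 0.12, the phosphoinositide 3-kinase gene Pik3cg by 1.10 ± 0.18 and the adaptor gene Pik3ap1 by 0.70 ± 0.12. The gene that fell was Plcg1, the relative of Plcg2 that most tissues express (-0.25 ± 0.08, adjusted p = 0.0438 by limma), and it stood at -0.01 after the correction for GC content and length (adjusted p = 0.926). The Plcg1 call also ended without any 1 of 8 of the 13 libraries (adjusted p up to 0.181). By limma, 0 of the 25 were called between APP/PS1 trazodone and APP/PS1 water, with an adjusted p of 0.0537 for Card9, the nearest. Of 10 phosphatases and inhibitors, 2 rose in APP/PS1 water relative to WT water, Ptpn6 (SHP-1; 1.48 ± 0.14) and Ptprc (CD45; 1.97 ± 0.20), and 1 fell, the adaptor gene Dok3 (-0.71 ± 0.20), which was no longer called after the correction (-0.40, adjusted p = 0.220) or without APP/PS1 water 1 or 2 (adjusted p = 0.123 and 0.0883). In APP/PS1 trazodone relative to APP/PS1 water, Dok3 was the 1 gene of the 10 called (0.79 ± 0.22, adjusted p = 0.0252 by limma), near the 12.5% of all entries called higher. This call also ended after the correction (0.44, adjusted p = 0.291) and without APP/PS1 trazodone 2 or 4 or APP/PS1 water 1 or 2 (adjusted p up to 0.113). Inppl1, the relative of Inpp5d found in most cells, stood at -0.11 ± 0.11 (adjusted p = 0.514 by limma).

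Of 9 transcription factors that act with Spi1, 8 reached the minimum, with 3 higher and 1 lower in APP/PS1 water relative to WT water, and 4 higher and 0 lower after the correction for GC content and length. Irf8, which forms dimers with the Spi1 protein, rose by 1.50 ± 0.14 and Runx1 by 0.91 ± 0.20. Cebpb was called lower in APP/PS1 water (-0.30 ± 0.08) and turned to higher after the correction for GC content and length (0.23, adjusted p = 0.0342), and the call ended without APP/PS1 water 1 or 2 (adjusted p = 0.0506 and 0.0517). It was also the 1 gene of the 8 called in APP/PS1 trazodone relative to APP/PS1 water, higher at 0.39 ± 0.09 and at -0.21 (adjusted p = 0.110) after the correction. A count of 1 higher among 8 was near the 12.5% of all entries called higher in that comparison. Among 12 genes of the WAVE complex and its Rac partners, 4 rose and 4 fell in APP/PS1 water relative to WT water, and 5 rose and 3 fell after the correction. Of the 4 that fell, Cyfip2 and Wasf1 were no longer called after it (adjusted p = 0.428 and 0.423). Leaving out 1 library ended the call of Wasf1 for 10 of the 13 libraries, of Abi2 for 6 and of Cyfip2 for 2. Nckap1l (1.05 ± 0.13) and Rac2 (0.82 ± 0.17), the forms found in blood-lineage cells, rose, whereas their widely expressed relatives Nckap1 (0.23 ± 0.05, called higher) and Rac1 (-0.01 ± 0.11, adjusted p = 0.976 by limma) stood at smaller values. The rises were not confined to blood-lineage forms. Cyfip1 stood at 62.8 to 69.1 TPM in APP/PS1 water and 42.7 to 56.1 TPM in WT water. After the correction Cyfip1 (0.47, adjusted p = 0.00126 by limma) and Wasf2 (0.39, adjusted p = 0.00214) were both called higher. In APP/PS1 trazodone relative to APP/PS1 water, 2 of the 12 rose and 1 fell, against 12.5% and 3.92% of all entries. After the correction 3 rose and 1 fell, against 2.62% and 1.58%. Abi1, the widely expressed relative of Abi3, was 1 of the 2 that rose before the correction. Its call ended without any 1 of 5 of the 13 libraries (adjusted p up to 0.0802 by limma). Brk1, a small subunit of the complex, fell in APP/PS1 water relative to WT water (-0.51 ± 0.07) and rose in APP/PS1 trazodone relative to APP/PS1 water (0.59 ± 0.08), and the 3 APP/PS1 water libraries enter both comparisons. Its level was 256 to 297 TPM in APP/PS1 trazodone, 166 to 203 TPM in APP/PS1 water and 238 to 280.5 TPM in WT water. Nckap1 went the other way, and it was the 1 gene of the 12 that fell in APP/PS1 trazodone relative to APP/PS1 water. It stood at 309 to 336 TPM in APP/PS1 trazodone and 390 to 411 TPM in APP/PS1 water. It was still called lower after the correction (-0.29, adjusted p = 0.0172 by limma).

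APP/PS1 trazodone relative to WT water had these counts, against 1.97% of all entries higher and 0.258% lower. Of the Trem2-dependent genes, 11 of 14 rose and 0 fell, of the ITAM receptors and adaptors 5 of 6, of the genes downstream of Syk 6 of 25, of the transcription factors 3 of 8, and of the phosphatases, the WAVE genes and the ligands 2 each, with 0 lower in every one of these groups. After the correction for GC content and length, 12 of the Trem2-dependent genes, 7 of the genes downstream of Syk and 3 of the WAVE genes rose. Lgals3 was 1 of the 2 ligands (1.29 log2 fold change). Leaving out 1 library ended the call of Pik3cg for 11 of the 13 libraries (adjusted p up to 0.135 by limma), of Lpl, a lipase among the Trem2-dependent genes, for 2 and of Runx1 for 1.

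**Figure D4:**
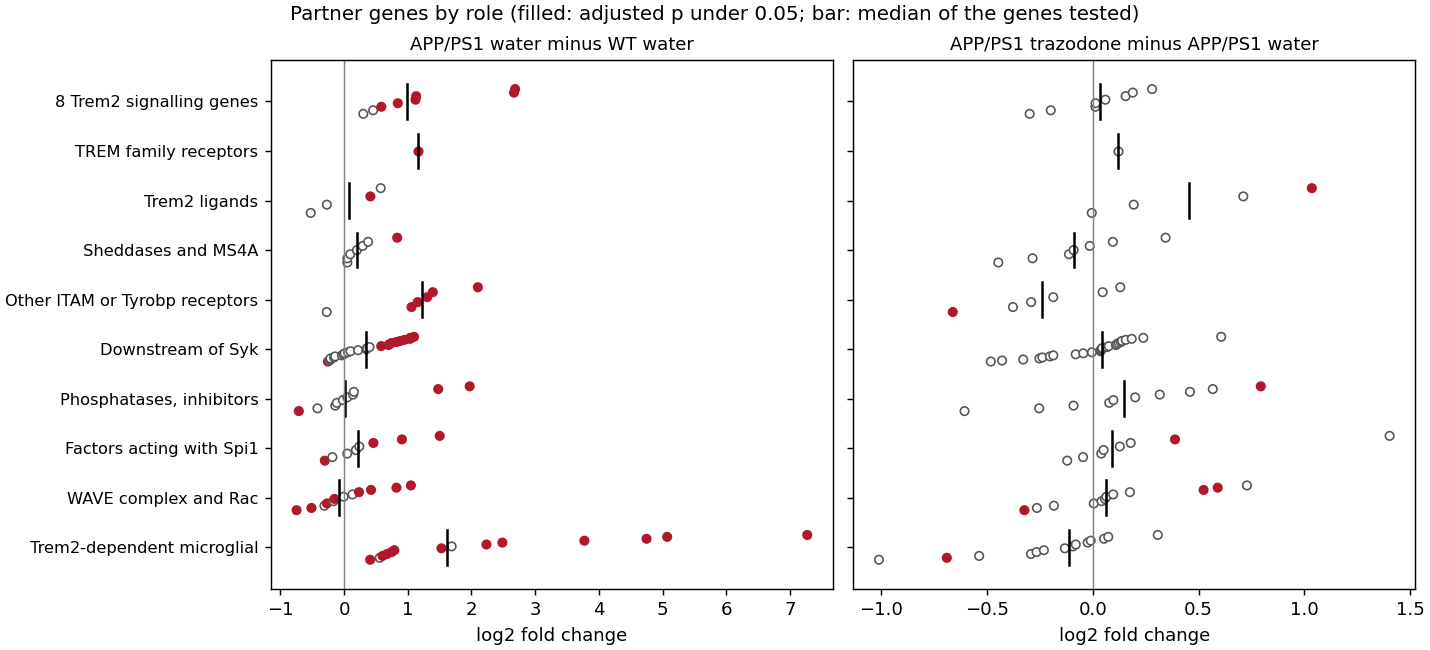
Log2 fold change (horizontal axes) of the 8 genes and of 9 groups of partner genes for APP/PS1 water minus WT water and for APP/PS1 trazodone minus APP/PS1 water, with 1 point per gene that reached the TPM minimum, filled at an adjusted p under 0.05, and a bar at the median of each group. The axes of the panels differ: the medians reach 1.61 in the comparison with WT water, and of the 8 genes 0 are filled in the comparison of trazodone with water.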

How the data were processed

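Poly(A) RNA of dissected right cortices was sequenced as paired-end reads on 1 of 2 instruments, and which library ran on which is unknown. Per the submitters' processing notes, the tools were fastp, STAR and DESeq2, and the build GRCm38 (mm10). Their versions, the annotation and the quantifying program are unknown (not given in the sources used here). Per the file headers, the authors deposited FPKM (fragments scaled by transcript length and library depth) and TPM, with 1 column per library. The TPM equal the rescaled FPKM to within 0.00868 TPM. All 8 genes carry merged transcript-model IDs, so coordinates and GC content come from GENCODE M21 by symbol. GC content and length, also in the correction, are those of the longest annotated transcript. That transcript need not be the form expressed. For depth, the value of 1 fragment was read off low FPKM times length in 2424 genes with 1 exon. At the depth chosen for each library, 37.4 to 44.8% of the low values lay within 0.1 of a whole fragment. The depths and the fragment counts drawn from them are therefore approximate. Entries with a mean of at least 0.5 TPM were fitted as log2(TPM + 0.5) in limma 3.58.1 (R 4.3.3; lmFit, eBayes with trend, 3 groups, no block). Tests were two-sided with Benjamini-Hochberg adjustment over all 18612 entries and a threshold of 0.05. The fold change of low genes is understated on this scale. Ratios within libraries were compared by exact permutation of libraries, and their 95% intervals use the pooled variance of the groups compared. GC content and length were corrected for by subtracting a loess trend (span 0.4) of each library's deviation from the mean over 18253 entries with known values. The 8 genes, the lists and the tests were chosen with earlier results of these data known. Of each partner list, up to 4 called genes with the smallest p per comparison and at most 2 others are named, along with the 5 entries most correlated with Trem2. Abi2, Cyfip2, Wasf1 and Lpl were named outside this rule, for the instability of their calls, after their values were seen. Cyfip1 and Wasf2 were also named after their values were seen, as WAVE genes called higher after the correction. Alternatives covered pseudocounts, TPM minimums, FPKM, scalings, weights, 2-group fits, blocks and left-out libraries. Of 10 same-numbered library pairs, 2 had a correlation over 0.1, by title number and by library number alike. The mean was 0.0299 by title number (-0.00680 in other pairs) and 0.0104 by library number (-0.00237 in other pairs). Weak correlations over 10 pairs cannot settle whether the numbers pair the libraries, and the labels do not state it. The fitting steps were tested on simulated data with known log2 changes. Between APP/PS1 trazodone and APP/PS1 water, 69% of changes of 1 and 23% of changes of 0.5 were called. Relative to WT water, these shares were 84% and 38% in APP/PS1 water and 84% and 43% in APP/PS1 trazodone. Of the calls, 0.813 to 5.93% were of unchanged genes. The simulated noise was independent between genes and held no GC trend shared by the libraries of a group. These shares therefore need not hold for the measured data.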

Additional observations from a re-analysis of the deposited data

Results flagged for a closer look

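Among 16 groups of 4 or 6 libraries for the 8 genes and 8 for the ratios, 4 held a library far from the others by Dixon's criterion, which flags about 1 in 20 groups by chance. Tyrobp stood at 39.9 TPM in WT water 4, against 29.8 TPM in the next highest WT library. Abi3 stood at 4.82 TPM in WT water 2, against 7.24 TPM in the next lowest WT library. Spi1 stood at 10.4 TPM in APP/PS1 trazodone 3, against 13.1 TPM in the next lowest trazodone library. The log2 ratio of Inpp5d to Syk stood at 1.53 in WT water 3, against 1.72 in the next lowest WT library. For the 3 genes, the library named did not overlap with the libraries of the other genotype. All 4 values entered the comparisons above.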

How the results depend on the processing

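Of the log2 fold changes of the 8 genes under the alternatives, 669 kept their direction and side of the threshold, 37 turned, 8 lost a call (all Syk in APP/PS1 trazodone relative to WT water) and 6 gained one (Syk in APP/PS1 water 4 times, Abi3 2 times). Of the ratios, 193 kept theirs, 12 turned and 2 lost a call. These counts include alternatives that could not move a value. Leaving out a library of the group outside a comparison changes neither its ratios nor their p-values. That step, the TPM minimums, a stricter threshold, robust variances and 2-group fits also leave a gene's log2 fold change as it was. The number of unchanged outcomes is therefore not a measure of robustness. The limits are the 3 APP/PS1 water libraries, their GC trend and the few fragments of Hcst. The number of the 8 genes called between APP/PS1 trazodone and APP/PS1 water was 1 (Abi3, lower) after the GC and length correction and 1 with that correction and a replicate block on the title number together. The labels do not state that title or library numbers pair the libraries, so the block was an alternative only. With either number as a block, 6 genes were called in APP/PS1 water relative to WT water. In APP/PS1 trazodone relative to WT water 6 were called (Syk lost), and 0 between the APP/PS1 groups. Over all entries the alternatives called 592 to 2118 higher and 1061 to 4029 lower in APP/PS1 water relative to WT water, 402 to 3062 and 207 to 1582 in APP/PS1 trazodone relative to APP/PS1 water, and 215 to 459 and 9 to 85 in APP/PS1 trazodone relative to WT water. With a library left out, Inpp5d per Syk in APP/PS1 trazodone minus WT water ran from 0.21 to 0.35, and it was 0.23 with a pseudocount of 0.1 (adjusted p = 0.0508, exact permutation). Trem2 per Tyrobp in APP/PS1 water minus WT water turned to -0.00474 on FPKM and ran from -0.0518 to 0.0888 with a library left out. Between APP/PS1 trazodone and APP/PS1 water, Trem2 per microglial index turned to -0.00547 without Sall1 and Aif1 in the index and to -0.0701 after the correction (-0.0571 to 0.0684 with a library left out), and Hcst per Tyrobp ran from -0.21 to 0.43. None of these values near 0 was called.

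The sign of 5 uncalled log2 fold changes between APP/PS1 trazodone and APP/PS1 water also turned. Tyrobp was -0.0456 on FPKM, -0.0635 with median-ratio scaling, -0.14 with quantile normalization, -0.0508 rescaled without mitochondrial, ribosomal protein and hemoglobin genes, -0.20 after the correction, -0.17 with array weights, -0.0887 and -0.0122 with the title and library blocks, -0.31 with the title block and the correction, and -0.10 to 0.16 with a library left out. Inpp5d was -0.0417, -0.0610, -0.0600, -0.0488, -0.19 and -0.0491 under the first 6 of these, -0.00565 with the title block, -0.23 with the block and the correction, and -0.0467 to 0.0647 with a library left out. Spi1 was -0.0135 with median-ratio scaling, -0.00698 with quantile normalization, -0.00130 when rescaled, -0.29 after the correction, -0.0264 with array weights and -0.33 with the block and the correction. Hcst was -0.0780 after the correction, -0.31 with array weights, -0.20 with the block and the correction, and -0.31 to 0.59 with a library left out. Plcg2 was -0.0763 after the correction and -0.12 with the block and the correction. Cebpb, called lower in APP/PS1 water, was 0.23 after the correction and 0.26 with the block and the correction, and in APP/PS1 trazodone minus APP/PS1 water it was -0.21 and -0.24. The cause of these changes was not tested.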
